A study of Mus musculus with 4 samples.

Results

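The E14 *Stat3* cKO library was compared with the E11 *Stat3* cKO library, gene by gene, to ask how the transcriptome of cultured neural progenitors from *Stat3* cKO embryos differed between embryonic day 14 (E14) and embryonic day 11 (E11). Entries were matched on gene and listed locus, and those whose mean across all 4 libraries reached 1 FPKM were kept. FPKM counts sequenced fragments per kilobase of transcript, relative to all fragments mapped. This took in 12449 of 21091 entries, and 12426 of them were above 0 in both *Stat3* cKO libraries and so had a plain ratio of E14 to E11. The other entries were at 0 only at E11 (14), only at E14 (7) or in both (2). The study holds 4 libraries, 1 for each genotype (CTL and *Stat3* cKO) at each of E11 and E14. No group had a replicate, so the error of a ratio is unknown, no p-value is given, and 2-fold is used as a fixed rule of size. The words rose and fell are kept for genes that reached it.

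The *Stat3* cKO embryos carried 2 floxed *Stat3* alleles and a Nestin-Cre transgene, in which a rat *Nestin* promoter and enhancer drive Cre in neural progenitors, on a C57BL6 background. The control (CTL) is called WT in the sample labels, whereas the animal methods describe Nestin-Cre embryos with 1 floxed allele. Both genotypes were taken from dissected embryonic brains at E11 or E14, grown in suspension as neurospheres with EGF and FGF, and lysed after 3 days. Each library therefore describes cells selected by dissection and by culture, and whether embryos were pooled is not stated. Since E11 and E14 cells were prepared from different embryos and dissections, stage cannot be told apart from embryo, dissection or library.

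Neural progenitors of the embryonic brain begin as a neuroepithelium patterned along the axes of the neural tube, become radial glia that produce neurons, and later turn to making astrocytes and oligodendrocytes. STAT3 is a transcription factor activated by cytokines of the interleukin 6 family through the gp130 receptor and JAK kinases, and in this tissue it is best known for driving the astrocyte gene *Gfap*. Whole embryonic brain also contains meninges, blood vessels and microglia, so a brain preparation can carry RNA from cells outside the neural lineage.

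The targeted gene was read before all others. *Stat3* had 6.74 FPKM at E11 and 9.55 at E14 in *Stat3* cKO, and 7.41 and 27.6 in CTL. The *Stat3* cKO libraries were thus below CTL at E14 and close to CTL at E11, so at E11 the level of the targeted gene did not set the library labelled *Stat3* cKO apart from CTL, and the gene total counts fragments from the whole locus, not only from the floxed exons. Relative depth, read from the steps that single fragments leave among 1820 low entries, was 0.832 for E11 with E14 set to 1. The number of fragments itself is unknown. The values summed to 806587 FPKM at E11 and 1461770 at E14, and 77 entries for small RNAs took 42.2% and 60.6% of those sums. *Xist*, which is transcribed from the inactive X chromosome, had 39.7 FPKM at E11 and 0.0370 at E14 in *Stat3* cKO. The Y-linked genes *Ddx3y*, *Eif2s3y*, *Kdm5d* and *Uty* were listed at 0 at E11 and at 25.1, 40.0, 13.9 and 14.7 FPKM at E14. Sex-linked transcripts therefore separated these libraries in the same way as stage. In CTL *Xist* had 46.9 and 13.6 FPKM, and the same Y-linked genes were listed at 0 at E11 and between 0.0404 and 0.123 FPKM at E14. The E14 *Stat3* cKO library thus differed in these transcripts from E14 CTL too, and their part in any difference between the genotypes given below was not tested.

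Markers of neural progenitors were high in both libraries. Radial glia and neural stem markers, 9 in all, summed to 1745 FPKM at E11 and 8160 at E14, and none was below 1 FPKM in either. Most of the difference between these sums was that of *Fabp7*, with 594 and 5929 FPKM. *Pax6*, *Hes1* and *Prom1* had lower values at E14, and the other markers had higher ones. The 6 neuronal markers summed to 717 and 808 FPKM. Microglial markers were near the bottom of the range, with all 5 of 5 below 1 FPKM at both stages (sums of 1.29 and 0.295), and endothelial markers summed to 4.67 and 1.61 FPKM. Mesenchymal markers were different. The 6 of them (*Pdgfrb*, *Twist1*, *Col1a1*, *Col3a1*, *Lum* and *Dcn*) summed to 956 FPKM at E11 and 8.50 at E14, beside 1099 and 13.3 in CTL, so both E11 libraries carried transcripts of connective tissue that both E14 libraries nearly lacked. Their part in the other results was not tested, and in bulk RNA fewer cells of a type cannot be told apart from less RNA per cell.

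Across all genes the *Stat3* cKO libraries were more alike than not. The log2 ratio had a median of 0.058, 7241 genes (58.3%) lay within 1.5-fold of equality, and the middle 50% of genes lay between -0.44 and 0.50. At least 2-fold higher at E14 were 1258 genes (10.1% of those with a ratio), and at least 2-fold lower were 1452 (11.7%). The extremes were lopsided towards falls. At least 10-fold higher were 129 genes and at least 10-fold lower 332, and at least 100-fold higher were 13 and lower 50. In CTL, whose libraries share none with this comparison, the shares past 2-fold were 14.6% higher and 12.5% lower. These splits rest on the deposited scale. If both *Stat3* cKO libraries are scaled to the same FPKM sum over protein-coding genes, an alternative chosen after the data were seen, every log2 ratio drops by 0.31 and 802 genes count as higher and 2152 as lower. With equal sums over all loci of at least 300 bases the drop is 0.99, with 386 higher and 5730 lower. Upper-quartile scaling takes off 0.15. Equal sums over loci of at least 300 bases turned 19 list medians from positive to negative, among them radial glia, gliogenic factors, synapse, neurotransmitter receptors, G2 and mitosis, OXPHOS, mitochondrial and cytosolic ribosomal proteins, proteasome and the tricarboxylic acid cycle, and left those of astrocyte, oligodendrocyte and fatty acid oxidation genes positive. A list's distance from the median of all genes is not moved by scaling, and it is given below for several lists.

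**Figure D1:**
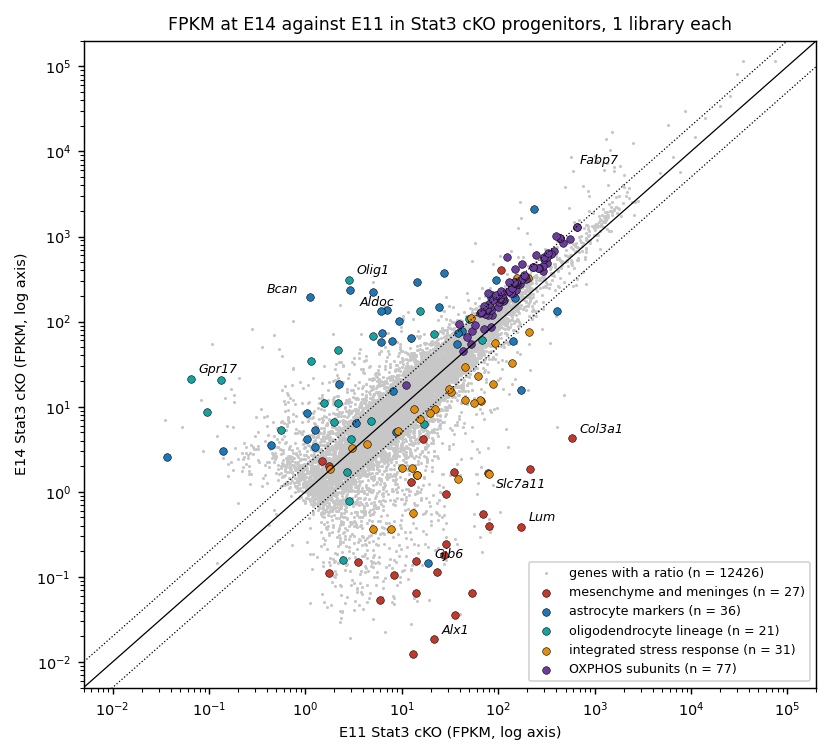
FPKM of each gene in the E11 *Stat3* cKO library (horizontal, log axis) and in the E14 *Stat3* cKO library (vertical, log axis), with the 12426 genes in grey, equality as a solid line and 2-fold as dotted lines. Mesenchymal genes lie below the dotted band in 24 of 27 cases, astrocyte markers above it in 25 of 36, and OXPHOS subunits run along its upper edge, with 18 of 77 above it as deposited and a median that turns negative under equal sums over loci of at least 300 bases.

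Most of the highest ratios belonged to glial genes. Of the 10 highest among genes with at least 10 FPKM in the higher library, *Gpr17*, *Sox10* and *Olig1* belong to the oligodendrocyte lineage, *Bcan* to brain matrix and *Ttr* to choroid plexus, and these are described below. The uncharacterised *2810459M11Rik* had the highest of all, with 0.108 FPKM at E11 and 54.4 at E14 (0.154 and 23.0 in CTL). The retinaldehyde-binding protein gene *Rlbp1*, of glia, rose 139-fold from 0.738 to 103 FPKM, the peptide transporter *Slc15a2*, of astrocytes, 142-fold from 0.356 to 50.6, and *Scrg1* from 0.0823 to 12.1. The histone gene *Hist1h2ba*, which has near copies and is uncertain, was also among the 10, with 0.475 and 69.2 FPKM, and went from 105 to 51.3 in CTL. *2810459M11Rik*, *Rlbp1*, *Slc15a2* and *Scrg1* rose in CTL too, *Slc15a2* from 1.56 to 43.1 and *Rlbp1* from 0.795 to 81.7. By difference in FPKM, among genes with a single symbol, a locus of at least 300 bases and values above 0 in both libraries, the 10 largest rises were all small RNA entries, led by *Snord16a* with 34679 and 115090 FPKM. Among the 10 largest falls by difference was *Crabp1*, which encodes a retinoic acid binding protein, from 412 to 5.82 FPKM (187 to 5.90 in CTL). *Malat1*, a nuclear noncoding RNA, fell from 809 to 276 FPKM.

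Of the 10 lowest ratios by the same rule, 8 belonged to transcription factors and matrix genes of mesenchyme, and the others were those of *Xist*, given above, and *Dbx1*, a neural progenitor factor given below. Among genes with at least 10 FPKM in the higher library, *Alx1*, a homeobox gene of craniofacial mesenchyme, went from 21.6 FPKM at E11 to 0.0184 at E14, and in CTL from 19.02 to 0.0611. The forkhead gene *Foxc2* went from 13.0 to 0.0125, *Foxd1* from 53.2 to 0.0655 and *Foxd2* from 12.4 to 0.0276. *Twist1*, a basic helix-loop-helix factor of mesenchyme, had 35.2 and 0.0353 FPKM in *Stat3* cKO and 42.0 and 0.450 in CTL. The remaining genes of this kind were *Osr1*, with 19.4 and 0.0539 FPKM, *Lum*, which encodes the matrix proteoglycan lumican, with 172 and 0.388, and *Lox*, which encodes the enzyme that cross-links collagen, with 68.1 and 0.197. Folds this large rest on E14 values of well under 1 FPKM, whose precision is unknown without counts. Of the 27 mesenchymal and meningeal genes analysed, 24 fell and 1 rose, with a median log2 ratio of -6.78, which is -6.84 relative to all genes, and a median of -6.29 in CTL. *Foxc1*, a factor of meningeal development, fell 204-fold, from 80.6 to 0.395 FPKM, and *Pdgfrb*, the receptor that marks pericytes and fibroblasts, fell 9.08-fold, from 14.4 to 1.58. The member that rose was *Ptn*, which encodes the growth factor pleiotrophin and is also made by radial glia: it rose 3.70-fold, from 108 to 399 FPKM.

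Collagens followed the mesenchymal factors closely. Of 29 collagen genes analysed 26 fell and 2 rose, with a median log2 ratio of -4.08 (-4.04 in CTL). The fibrillar collagen gene *Col3a1* fell from 586 to 4.29 FPKM and *Col1a1* from 68.9 to 0.544. The basement membrane collagen *Col4a1* fell from 125 to 3.37 FPKM. The 2 that rose were *Col9a3*, from 4.05 to 34.7 FPKM, and *Col5a3*, from 0.225 to 1.95, and both rose in CTL as well (3.79 to 18.8 and 0.276 to 1.85). In the wider list of 55 matrix and proteoglycan genes, 26 fell and 11 rose. Those that fell included the glypican *Gpc3* (186 to 1.34 FPKM), the laminin chain *Lamb1* (66.6 to 1.96) and fibronectin, *Fn1* (29.0 to 0.950). Those that rose included components of brain matrix: brevican, *Bcan* (1.12 to 195), tenascin-R, *Tnr* (0.461 to 6.52), and neurocan, *Ncan* (33.9 to 149). Others were the metalloproteinase inhibitor *Timp4* (0.349 to 9.44), *Fbln2* (23.9 to 104) and *Mmp15* (12.5 to 42.7). The proteoglycan gene *Vcan* fell from 34.2 to 13.8 FPKM. The matrix genes thus split by gene rather than moving together.

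Other lists of cells outside the neural lineage were short, since few of their genes reached a mean of 1 FPKM. Of 8 microglial and leukocyte genes with a ratio, 6 fell, among them *Lyz2*, which encodes the lysozyme of macrophages, from 15.9 to 1.07 FPKM, and the complement gene *C1qb*, from 1.82 to 0.113. The list's median log2 ratio was -3.06 and turned to 0.65 at a minimum mean of 5 FPKM, and members such as *C1qb* passed the minimum of 1 FPKM through their E11 values. Of 6 endothelial and pericyte genes 1 rose, *Cspg4*, which oligodendrocyte precursors share (0.563 to 5.35 FPKM), and 4 fell, among them *Vtn* (vitronectin) from 24.2 to 1.19 FPKM and the VEGF receptor *Kdr* from 2.28 to 0.262. Of 13 neural crest, placode and choroid plexus genes 9 fell and 3 rose. The neural crest factor *Tfap2b* fell from 9.62 to 0.0880 FPKM. *Ttr*, which encodes the thyroid hormone carrier transthyretin and is the best known choroid plexus transcript, rose 291-fold from 0.282 to 82.2 FPKM (0.263 to 118 in CTL). Other choroid plexus genes did not rise with it: *Otx2* (34.96 to 4.78), *Enpp2* (100.7 to 20.5) and *Aqp1* (1.66 to 0.791) fell, and *Folr1* had 1.32 and 0.847. The embryonic globin gene *Hbb-y*, the only erythroid gene analysed, fell from 3.07 to 0.852 FPKM, and no gene of the HOX cluster or of the pluripotency list reached a mean of 1 FPKM.

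Regional patterning genes, which are best known from the neural tube, also had deep falls. Some of them, such as *Zic1* and *Nr2f2*, are made by meninges or mesenchyme as well, and the part of the mesenchymal transcripts in these falls was not tested. Of 29 forebrain patterning factors 20 fell and 1 rose, with a median log2 ratio of -2.86 (-2.67 in CTL). The zinc finger genes *Zic1* and *Zic2*, which mark dorsal midline tissue, fell from 83.5 to 8.78 and from 70.6 to 7.24 FPKM. *Irx3*, a homeobox gene of caudal forebrain and midbrain, fell from 7.86 to 0.0506 FPKM, and *Nr2f2*, an orphan nuclear receptor, from 45.2 to 4.97. The dorsal telencephalic factor *Emx1* was the only member that rose, from 5.93 to 19.3 FPKM. Other telencephalic genes differed among themselves. *Lhx2* (30.1 and 47.2 FPKM) and *Nr2f1* (86.5 and 74.7) stayed within 2-fold, *Otx1* fell from 6.42 to 2.45 and *Bhlhe22* rose from 7.24 to 44.8. Of 19 midbrain, hindbrain and spinal factors 13 fell and 3 rose, with a median of -3.32 (-3.55 in CTL). *Dbx1*, a progenitor factor of several brain domains, fell from 14.3 to 0.0516 FPKM, the interneuron factor *Tal1* from 8.73 to 0.149 and the midbrain-hindbrain factor *En2* from 5.63 to 0.150. The 3 that rose, *Meis1* (8.90 to 17.9), *Meis2* (22.7 to 71.6) and *Prdm8* (1.88 to 6.17), are also expressed in telencephalon.

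Genes that mark early progenitors were lower at E14 in *Stat3* cKO. Of 15 analysed, 10 fell and 1 rose, with a median log2 ratio of -2.10 (-1.54 in CTL). *Hmga2*, a chromatin protein gene of young neural stem cells, fell 22.8-fold from 21.1 to 0.927 FPKM, and in CTL from 18.05 to 2.22. *Lin28b*, which encodes the RNA-binding protein that blocks let-7 maturation, fell from 4.58 to 0.472 FPKM (3.48 to 0.503 in CTL). The mRNA-binding proteins of the same programme, *Igf2bp1* and *Igf2bp2*, fell from 20.3 to 3.77 and from 21.7 to 5.06 FPKM, whereas *Igf2bp3* had 44.7 and 28.4. The only member that rose was *Myc*, from 0.990 to 3.35 FPKM, while its relative *Mycn* had 23.8 and 17.9. *Hmga2* and *Lin28b* were lower at E14 in both genotypes, and whether the deeper values in *Stat3* cKO differ from CTL was not tested.

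**Figure D2:**
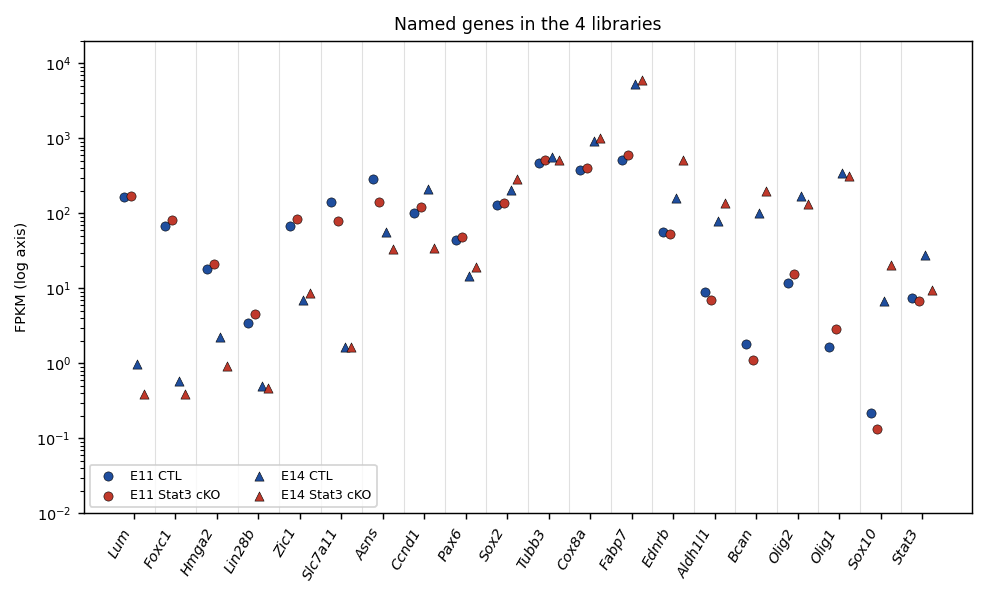
FPKM (log axis) of 20 genes described in the text, with circles for E11, triangles for E14, blue for CTL and red for *Stat3* cKO, 1 library each. *Lum* lay at 172 and 165 FPKM in the E11 libraries and at 0.388 and 0.977 in the E14 libraries, with CTL given second. In *Ccnd1* the E14 libraries lie on opposite sides of the E11 libraries, with 34.2 FPKM in *Stat3* cKO and 210.1 in CTL.

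Astrocyte markers formed the largest rise. Of 36 analysed 25 rose and 4 fell, with a median log2 ratio of 2.502, or 2.44 relative to all genes, and a median of 1.84 in CTL. *Bcan* rose 174-fold, from 1.12 to 195 FPKM, and *Aldoc*, the aldolase of astrocytes, 80.1-fold, from 2.93 to 235. The metallothionein gene *Mt3* rose from 5.07 to 226 FPKM and *Ndrg2* from 6.13 to 135. *Aldh1l1*, a folate enzyme used as a general astrocyte marker, rose 19.3-fold, from 7.06 to 136 FPKM in *Stat3* cKO and from 8.90 to 78.6 in CTL. The water channel gene *Aqp4* rose from 1.04 to 8.32 FPKM and *S100b* from 0.436 to 3.54. *Apoe*, the main lipid carrier of the brain, rose in *Stat3* cKO from 93.8 to 304 FPKM but had 124 and 92.2 in CTL. *Gfap* stayed below 1 FPKM in all 4 libraries, at 0.0625 and 0.186 in *Stat3* cKO and at 0.124 and 0.901 in CTL, and was not among the genes analysed. The 4 members that fell were *Gjb6* (18.5 to 0.144 FPKM) and *Gja1* (174 to 15.7), which encode connexins also made by meninges, *Id3* (407 to 133) and *Sparc* (143 to 59.1).

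The oligodendrocyte lineage rose alongside. Of 21 genes 14 rose and 3 fell, with a median log2 ratio of 2.32 (1.62 in CTL). *Gpr17*, a receptor of immature oligodendrocytes, rose 324-fold from 0.0657 to 21.3 FPKM, and in CTL from 0.133 to 5.58. *Sox10*, the lineage-defining factor of oligodendrocytes, rose from 0.134 to 20.6 FPKM (0.215 to 6.74 in CTL). The related helix-loop-helix factors *Olig1* and *Olig2* rose from 2.85 to 311 and from 15.5 to 134 FPKM, beside 1.64 to 345 and 11.9 to 168 in CTL. *Bcas1*, of early myelinating cells, rose from 0.0952 to 8.65 FPKM and the proteoglycan gene *Cspg4* from 0.563 to 5.35. *Pdgfra*, a receptor of oligodendrocyte precursors and also of mesenchyme, had 68.7 and 61.2 FPKM beside mesenchymal marker sums of 956 and 8.50, and *Mbp*, which encodes myelin basic protein, had 4.85 and 6.75. The ventral factor *Nkx2-2* fell from 2.85 to 0.773 FPKM. The E14 value was higher in *Stat3* cKO than in CTL for *Gpr17*, *Sox10*, *Bcas1* and *Cnp* and lower for *Olig1* and *Olig2*, a difference that was not tested.

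Of 26 transcription factors linked to gliogenesis, 12 rose and 6 fell. The nuclear factor I genes differed among themselves: *Nfix* rose 17.3-fold from 0.622 to 10.8 FPKM, *Nfib* rose from 12.2 to 39.3, and *Nfia* had 5.18 and 6.22. *Sox9*, which specifies glial fate, had 6.98 and 9.47 FPKM. The ETS factors *Etv4* and *Etv5*, which respond to FGF signalling, rose from 2.15 to 23.8 and from 4.61 to 21.2 FPKM. The inhibitors of differentiation *Id1* and *Id3* fell from 110.4 to 35.4 and from 407 to 133 FPKM, whereas *Id2* had 144 and 143. *Hey2*, a Notch effector, rose in *Stat3* cKO from 1.07 to 3.58 FPKM and had 1.16 and 0.802 in CTL.

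Radial glia markers mixed rises with falls. Of 33 analysed, 14 rose and 6 fell, with a median 0.40 above that of all genes (0.41 in CTL). *Fabp7*, the fatty acid binding protein of radial glia, rose from 594 to 5929 FPKM and was the highest of these genes at E14. *Ednrb*, the endothelin B receptor, rose from 53.5 to 521 FPKM, and in CTL from 56.4 to 162. *Sox2*, the defining factor of neural stem cells, had 138 and 284 FPKM, a 2.05-fold rise, while the intermediate filament gene *Nes* had 63.4 and 111. *Pax6*, a dorsal progenitor factor, fell from 48.6 to 18.998 FPKM. Cyclin D genes fell in *Stat3* cKO: *Ccnd1* from 120.35 to 34.2 FPKM and *Ccnd2* from 100.1 to 33.5. In CTL *Ccnd1* rose from 101 to 210.1 FPKM, and *Ccnd2* had 84.2 and 65.2.

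Proneural and intermediate progenitor genes were more often lower than higher. Of 24 analysed, 11 fell and 4 rose, with a median of -0.49 in both genotypes. *Neurog1*, a proneural factor, fell from 6.57 to 0.318 FPKM, and *Neurog2*, its dorsal relative, from 43.8 to 20.9. *Eomes*, which defines cortical intermediate progenitors, fell 2.02-fold from 14.8 to 7.33 FPKM, just past the 2-fold rule, and had 10.7 and 8.50 in CTL. The factors of young cortical neurons *Neurod6* and *Neurod2* rose from 3.76 to 72.0 and from 2.21 to 33.9 FPKM. Among 21 cortical layer factors 6 rose and 4 fell. Those that rose included *Mef2c* (2.19 to 16.5 FPKM) and *Bcl11b*, of corticospinal neurons (4.53 to 11.2). *Foxp2* fell from 12.3 to 1.41 FPKM, and *Tbr1*, of early deep-layer neurons, had 4.97 and 3.84. Among 25 interneuron genes 5 rose and 9 fell. *Lhx6*, of medial ganglionic eminence interneurons, rose from 0.572 to 6.88 FPKM and somatostatin, *Sst*, from 9.62 to 48.1, while *Maf* fell from 34.0 to 3.64.

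Pan-neuronal genes as a list lay close to the median of all genes. Of 37 neuronal cytoskeleton and RNA-binding genes 30 stayed within 2-fold, 5 rose and 2 fell, beside 10.1% of all genes that rose and 11.7% that fell. Their median was 0.04 below that of all genes on the log2 scale. *Tubb3*, the neuronal tubulin, had 510.5 and 517 FPKM, and *Dcx*, of migrating neurons, had 39.2 and 37.9. *Tubb2a* rose from 99.8 to 327 FPKM and the neurofilament gene *Nefm* fell from 6.11 to 1.39. Of 37 synaptic genes 10 rose and 2 fell. The vesicular glutamate transporters moved apart: *Slc17a6*, typical of diencephalon and hindbrain, fell from 18.1 to 2.45 FPKM, and *Slc17a7*, typical of cortex, rose from 0.674 to 1.93. Of 31 neurotransmitter receptor genes 15 rose and none fell in *Stat3* cKO, and in CTL 13 rose and 3 fell. *Gabrg1*, a GABA-A receptor subunit, rose from 0.147 to 12.7 FPKM, the metabotropic glutamate receptor *Grm5* from 0.750 to 28.3 and the AMPA receptor subunit *Gria2* from 15.6 to 53.7. The receptor median was 0.64 above that of all genes (0.30 in CTL).

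Signalling pathways with a role in patterning were mostly lower at E14. Of 38 Wnt genes 23 fell and 5 rose, with a median log2 ratio of -1.45 (-1.84 in CTL). Among ligands and their enhancers, *Wnt8b* fell from 4.35 to 0.0513 FPKM and *Rspo1* from 7.97 to 0.128, whereas *Wnt7a* and *Wnt7b*, ligands of the developing cortex, rose from 5.46 to 23.0 and from 26.6 to 55.2. Of the transcriptional read-outs of the pathway, *Lef1* fell from 7.41 to 0.139 FPKM and *Axin2* from 18.3 to 3.41. Of 18 Hedgehog genes 11 fell and 2 rose (median -1.66). The ligand gene *Shh* fell from 6.89 to 0.132 FPKM, the target and effector *Gli1* from 12.6 to 0.124 and the receptor and target *Ptch1* from 24.7 to 7.96, whereas the transducer *Smo* had 63.6 and 50.9. The ligand *Dhh*, of Schwann and Sertoli cells in the textbook account, rose from 0.0863 to 3.02 FPKM. Of 37 BMP and TGF beta genes 18 fell and 4 rose (median -0.97). The ligand *Bmp4* fell from 12.3 to 1.33 FPKM and the target *Smad6*, an inhibitor of the pathway, from 8.85 to 0.998. The receptor *Bmpr1a* had 49.7 and 45.3 FPKM, and the activin subunit *Inhbb* rose from 1.20 to 21.8. In the IGF system 10 of 15 genes fell: *Igf2*, the fetal growth factor, fell from 55.8 to 0.396 FPKM and *Igf1* from 9.93 to 0.472. The binding protein genes *Igfbp2* and *Igfbp3* rose from 170.4 to 436 and from 2.74 to 21.8 FPKM.

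Notch and FGF genes showed less of a common direction. Of 29 Notch genes 7 rose and 4 fell in *Stat3* cKO, and 2 rose and 6 fell in CTL. Among ligands *Dll1* rose from 27.4 to 57.8 FPKM and *Jag1* fell from 20.4 to 4.24. The glycosyltransferase *Lfng*, a modulator of Notch, rose from 15.0 to 64.1 FPKM, and the effector *Hes5* rose from 137 to 294 (88.5 to 124 in CTL). *Hes1* had 28.7 and 17.2 FPKM. Of 26 FGF and ERK genes 8 rose and 6 fell. The ligand *Fgf15* fell 178-fold, from 104 to 0.585 FPKM. Feedback inhibitors induced by ERK were the members whose values differed most from CTL: *Dusp6* had 12.4 and 10.3 FPKM in *Stat3* cKO and 14.6 and 60.4 in CTL, and *Spry4* 0.593 and 1.25 beside 0.795 and 11.1. *Spry1* had 3.42 and 6.04 FPKM beside 4.42 and 28.5. These 3 were chosen after their values were seen, and the difference between genotypes was not tested.

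Genes of the pathway that acts through STAT3 mostly stayed within 2-fold, as did genes in general. Of 27 JAK-STAT and gp130 genes none rose and 5 fell, beside 10.1% of all genes that rose and 11.7% that fell. The list's median was 0.47 below that of all genes (0.41 below in CTL). *Il6st*, which encodes the shared receptor gp130, fell 5.10-fold from 39.4 to 7.73 FPKM (44.9 to 7.58 in CTL), and *Il11ra1* fell from 39.0 to 7.25. The LIF receptor gene *Lifr* had 13.4 and 9.84 FPKM, *Jak2* had 18.97 and 33.5, and the classical STAT3 target *Socs3* had 3.82 and 2.34. *Stat6* fell from 6.14 to 0.525 FPKM. Of 24 interferon and antigen presentation genes 8 fell and 2 rose. *Ifitm1* fell from 10.9 to 0.174 FPKM and *Ifitm2* from 130.2 to 14.1.

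Imprinted genes were lower in a majority of cases. Of 31 analysed 18 fell and 1 rose, with a median log2 ratio of -1.17 , and in CTL 16 fell and 1 rose. The noncoding RNA *H19* fell from 483 to 13.8 FPKM and the cell cycle inhibitor *Cdkn1c* from 347 to 55.6. *Mest* fell in *Stat3* cKO from 284 to 81.5 FPKM and had 249.8 and 239.8 in CTL. *Nnat*, which encodes neuronatin and was the highest of these genes, had 1128 and 1162 FPKM. The single rise was that of *Nap1l5*, from 12.5 to 26.9 FPKM. Axon guidance genes were divided, with 22 of 60 lower and 10 higher. The commissural receptor gene *Robo3* fell from 3.17 to 0.0404 FPKM, the repellent *Slit2* from 11.8 to 1.02 and the attractant *Ntn1* from 40.8 to 11.0. *Slitrk2* rose from 2.11 to 13.2 FPKM and the receptor gene *Plxna4* from 1.51 to 4.49. None of the 11 clustered protocadherin genes analysed reached 2-fold.

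**Figure D3:**
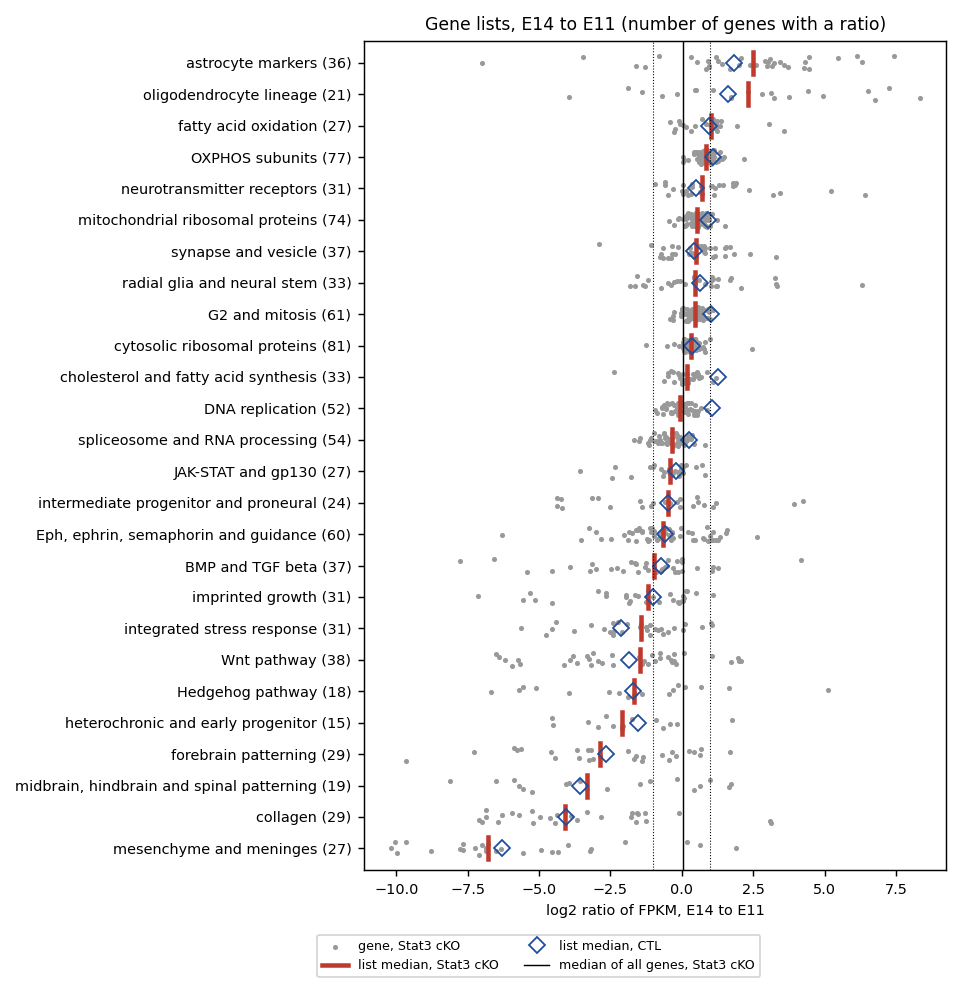
The log2 ratio of E14 to E11 for the genes of 26 lists, with a grey point for each gene in *Stat3* cKO, a red bar for the list median in *Stat3* cKO, a blue diamond for the list median in CTL, a solid line at the median of all genes (0.058) and dotted lines at 2-fold. Mesenchymal genes lie lowest (median -6.78) and astrocyte markers highest (2.502). The red bar and the blue diamond stand over 1 log2 unit apart in DNA replication (-0.05 and 1.08) and in cholesterol and fatty acid synthesis (0.17 and 1.28), and the sign of medians near 0 depends on scaling.

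DNA replication genes were nearly level in *Stat3* cKO. None of the 52 analysed reached 2-fold in either direction, and their median was 0.11 below that of all genes. In CTL 30 of the 52 rose at least 2-fold, with a median 0.86 above that of all genes. *Pcna*, the sliding clamp of replication, had 249 and 336 FPKM in *Stat3* cKO and 187 and 575 in CTL. *Mcm4*, a subunit of the replicative helicase, had 34.8 and 21.9 FPKM beside 24.8 and 40.6, and the loading factor *Cdc6* had 6.81 and 4.24 beside 4.61 and 11.4. Thymidine kinase, *Tk1*, had the highest ratio of the list in *Stat3* cKO, with 29.9 and 55.5 FPKM. Of 61 G2 and mitosis genes 1 rose (*Knstrn*, a spindle protein gene, from 26.4 to 56.7 FPKM) and none fell, with a median 0.40 above that of all genes (0.80 in CTL). *Mki67*, the proliferation marker, had 25.5 and 25.1 FPKM, and *Cdk1* had 43.2 and 84.4. For *Pcna*, *Mcm4* and *Cdc6* the *Stat3* cKO value was above CTL at E11 and below CTL at E14. Whether the genotypes differ was not tested.

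Regulators of the G1 phase fell more often than they rose. Of 37 analysed 10 fell and 3 rose, beside 11.7% of all genes that fell and 10.1% that rose. Beside the D cyclins, the transcription factor *E2f1* fell from 8.995 to 2.82 FPKM and *Ccnd3* from 31.0 to 13.7. The inhibitor *Cdkn2c* rose from 9.54 to 55.2 FPKM. Cyclin E2, *Ccne2*, had 8.38 and 6.32 FPKM in *Stat3* cKO and 4.95 and 18.6 in CTL. Chromatin regulators were mostly within 2-fold, as were genes in general. Of 27 PRC2, DNA methylation and TET genes 4 fell and 1 rose, beside 11.7% and 10.1% of all genes. The methyltransferase gene *Dnmt3a* went from 24.5 to 11.3 FPKM and the dioxygenase gene *Tet3* from 8.09 to 3.09. *Ezh2*, the catalytic subunit of PRC2, had 47.6 and 31.8 FPKM. Of 28 BAF complex genes 3 fell and 2 rose, the latter being *Bcl11b* and *Smarcd3* (34.6 to 74.9 FPKM).

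Nuclear-encoded subunits of oxidative phosphorylation (OXPHOS) had higher values at E14 on the deposited scale, from 1.04-fold to 4.56-fold. All 77 lay above the median of all genes, 18 (23.4%) reached 2-fold, none fell, and the median was 0.79 above that of all genes. In CTL 48 of the 77 reached 2-fold and the median was 0.87 above that of all genes. On the deposited scale the *Stat3* cKO median was 0.85, and it turned to -0.14 when both libraries were given equal sums over loci of at least 300 bases. The largest ratio was that of *Ndufc2*, a complex I subunit, from 124 to 567 FPKM. Among further rises were the complex III subunits *Uqcr10* (149 to 418 FPKM) and *Uqcr11* (178 to 472) and the complex IV subunit *Cox8a* (398 to 1006). Among the smallest ratios were those of *Sdha*, of complex II, with 83.4 and 87.0 FPKM, and *Ndufab1*, with 43.6 and 45.4.

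The promoters of these genes were searched for letter patterns. The RefSeq promoter table (GRCm38.p6, from 250 bases before to 50 bases after each start) held 9159 of the genes analysed, and 8 motifs were searched on both strands. Beside those described here and below, they were the E2F element TTTCCCGC (in 1.24% of all promoters of the table), a sterol element TCACNCCAC (1.44%), the E box CACGTG (8.09%) and the cyclic AMP element TGACGTCA (2.03%). The E2F element was in 8 of 44 DNA replication promoters (18.2%), beside 2.42% of genes analysed. The sterol element was in 0 of 21 cholesterol and fatty acid synthesis promoters, beside 1.38% of genes analysed. The lists and motifs were chosen after the values were seen. The element of nuclear respiratory factor 1 (NRF1), a factor long linked to respiratory genes, was present in 17 of 64 OXPHOS promoters (26.6%), in 11.8% of all genes analysed and in 5.19% of all promoters of the table. Windows of 50 bases around the element in ATP synthase genes are shown, with the match in capitals, because they let these matches be read. The *Atp5h* match is to the reverse complement of the searched letters and is not a palindrome, and the others match on both strands.
*Atp5k* (chr5:108434420-108434469, minus strand): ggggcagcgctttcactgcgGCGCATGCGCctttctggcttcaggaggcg
*Atp5g2* (chr15:102671060-102671109, minus strand): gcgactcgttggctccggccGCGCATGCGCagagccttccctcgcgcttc
*Atp5h* (chr11:115420031-115420080, minus strand): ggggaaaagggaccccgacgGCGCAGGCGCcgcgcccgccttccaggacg
The elements begin 50, 42 and 141 bases before the listed starts. *Atp5o* also held a match, just after its start, which is not shown. *Atp5k* had 657 and 1279 FPKM, *Atp5g2* had 320.2 and 581, and *Atp5h* had 289.8 and 446, so none of the 3 reached 2-fold. The palindromic STAT element TTCCNGGAA was found in 1 of 64 OXPHOS promoters (1.56%), in 1.38% of genes at least 2-fold higher, in 1.06% of those at least 2-fold lower and in 1.51% of all genes analysed. A match is a description of the sequence, and no match says only that the letters are absent from this window. In another list, the cell cycle homology region TTTGAA was present in 35 of 49 G2 and mitosis promoters (71.4%), beside 13.5% of all genes analysed.

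The medians of other mitochondrial lists were also above that of all genes, though not every member was. Of 74 mitochondrial ribosomal protein genes 3 rose and none fell, with a median 0.47 above that of all genes. Of 22 genes of the tricarboxylic acid cycle and its entry 3 rose, among them pyruvate carboxylase, *Pcx*, from 8.998 to 57.01 FPKM. Another was the malate dehydrogenase *Mdh1*, from 123 to 276, which is cytosolic. The mitochondrial malate dehydrogenase *Mdh2* had 58.8 and 74.4 FPKM. In fatty acid oxidation 16 of 27 genes were higher and none lower in *Stat3* cKO, with a median 0.98 above that of all genes (0.73 in CTL). *Cpt1a*, which encodes the enzyme that admits fatty acids to mitochondria, rose 8.36-fold from 2.10 to 17.5 FPKM, and the dehydrogenase *Acadl* from 7.55 to 29.2. *Acsbg1*, an acyl-CoA synthetase of brain, rose from 6.23 to 74.5 FPKM. This was a larger share of members past 2-fold (59.3%) than among OXPHOS subunits (23.4%) or all genes (10.1%).

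Glycolysis and lipid synthesis had no such rise. Of 28 glycolytic genes 6 fell and 1 rose. Those that fell included the lactate exporter *Slc16a3* (13.7 to 1.92 FPKM), hexokinase 2, *Hk2* (13.7 to 3.70), and the glucose transporter *Slc2a1* (25.8 to 12.5), and the member that rose was *Aldoc*. *Hk2* had 9.74 and 9.02 FPKM in CTL. Of 33 cholesterol and fatty acid synthesis genes 2 rose and 1 fell in *Stat3* cKO, against 20 and 1 in CTL, with medians 0.11 and 1.06 above those of all genes. Isopentenyl diphosphate isomerase, *Idi1*, had 70.5 and 79.6 FPKM in *Stat3* cKO and 21.7 and 127 in CTL. For this gene the E11 libraries differed by genotype as well as the E14 libraries. Of 23 serine and one-carbon genes 5 rose and 4 fell. Cystathionine beta-synthase, *Cbs*, rose from 0.749 to 27.6 FPKM.

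The integrated stress response was the metabolic list with the deepest fall. This response raises translation of the transcription factor ATF4 when amino acids are short or proteins misfold, and ATF4 in turn induces amino acid transport and synthesis. Of 31 genes 20 fell and 2 rose, with a median log2 ratio of -1.44, or -1.50 relative to all genes. In CTL 27 of the 31 fell, with a median of -2.13. *Atf4* itself fell 2.73-fold, from 208 to 76.4 FPKM, and in CTL from 310.4 to 113. The cystine transporter *Slc7a11* fell 49.0-fold from 80.0 to 1.63 FPKM, and in CTL from 140.1 to 1.64. The glutathione-degrading enzyme *Chac1* fell from 38.3 to 1.43 FPKM, the stress protein *Nupr1* from 12.9 to 0.561 and the pseudokinase *Trib3* from 7.76 to 0.362. Asparagine synthetase, *Asns*, fell from 141 to 33.1 FPKM. The members that rose were phosphoglycerate dehydrogenase, *Phgdh*, of serine synthesis, from 157 to 321 FPKM, and the alanine transaminase *Gpt2*, from 52.5 to 109.7. *Psat1*, also of serine synthesis, had 203 and 329.9 FPKM, while *Mthfd2*, of one-carbon metabolism, fell from 56.2 to 10.9. At E11 the *Stat3* cKO values were below CTL for *Nupr1* (12.9 against 71.4), *Slc7a3* (14.4 against 72.8) and *Ddit3* (32.2 against 93.3), so the smaller fold in *Stat3* cKO goes with a lower starting value for these genes.

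The element bound by ATF4 with its partners, searched as TGATGNAA on both strands, was present in 9 of 26 stress response promoters in the RefSeq table (34.6%). It was present in 229 of 9159 genes analysed and in 1219 of 27025 symbols of the table (4.51%). All 9 carriers were among the 17 members with a promoter that fell at least 2-fold, and none was among the other 9. The list and the motif were chosen with the values known and the split uses the same ratios, so a link between element and fall was not tested. Members without the element, such as *Slc7a1* and *Mthfd2*, also fell at least 2-fold. The share among all genes at least 2-fold lower was 3.76% and among all at least 2-fold higher 2.65%. Windows of 48 bases are given for 7 carriers so that the element can be read in its context, with capitals for the element, 5′ to 3′ on the gene's strand.
*Slc7a11* (chr3:50443652-50443699, minus strand): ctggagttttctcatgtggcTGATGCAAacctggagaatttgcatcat
*Chac1* (chr2:119351029-119351076, plus strand): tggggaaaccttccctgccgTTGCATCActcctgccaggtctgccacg
*Nupr1* (chr7:126625553-126625600, minus strand): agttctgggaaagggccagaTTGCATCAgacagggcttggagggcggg
*Atf3* (chr1:191183416-191183463, minus strand): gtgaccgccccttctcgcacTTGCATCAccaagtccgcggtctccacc
*Herpud1* (chr8:94386297-94386344, plus strand): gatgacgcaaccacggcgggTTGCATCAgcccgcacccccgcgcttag
*Vldlr* (chr19:27216800-27216847, plus strand): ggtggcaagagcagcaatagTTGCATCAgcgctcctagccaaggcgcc
*Pck2* (chr14:55540143-55540190, plus strand): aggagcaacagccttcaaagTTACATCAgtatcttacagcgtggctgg
The *Slc7a11* window holds the element again on the other strand, 47 bases before the start. The remaining carriers were *Trib3* and *Asns*, whose elements lie beside the start. Among the 7 genes shown, *Atf3* fell from 5.08 to 0.368 FPKM, *Herpud1* from 61.6 to 22.7, *Vldlr* from 21.99 to 9.28 and *Pck2* from 15.6 to 7.24. The 5 lowest ratios of the list all belonged to carriers.

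**Figure D4:**
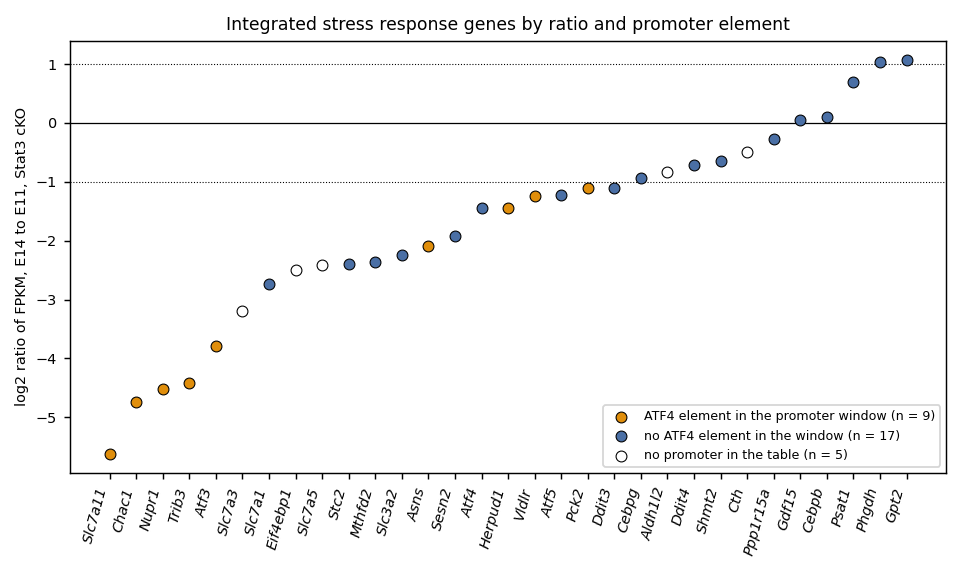
The log2 ratio of E14 to E11 in *Stat3* cKO for 31 integrated stress response genes in order of their ratio, coloured by the presence of the ATF4 element in the promoter window (9 with it, 17 without, 5 with no promoter in the table), with dotted lines at 2-fold. The carriers lie between -5.62 (*Slc7a11*) and -1.11 (*Pck2*), below the lower dotted line, as do some genes without the element.

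Related stress and housekeeping lists moved less. Of 36 aminoacyl-tRNA synthetase genes 3 fell and 2 rose. The cytosolic *Cars* and *Iars* fell from 35.3 to 13.1 and from 43.1 to 16.0 FPKM, whereas the mitochondrial *Cars2* rose from 6.38 to 18.1. Of 28 ER chaperone and folding genes 2 rose and 2 fell, and the chaperone *Hspa5* had 157 and 188 FPKM. Of 33 hypoxia genes 12 fell and 4 rose. *Vegfa*, the vascular growth factor, fell from 55.5 to 12.8 FPKM and *Loxl2* from 14.8 to 1.14, and the metallothioneins *Mt1* and *Mt2* rose from 14.5 to 292 and from 6.13 to 57.9. Among 20 immediate early genes 2 rose and 4 fell. *Fos* had 1.17 and 2.19 FPKM in *Stat3* cKO and 0.952 and 6.74 in CTL, and *Egr1* had 1.70 and 1.84 beside 1.12 and 3.85.

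The machinery of protein and RNA turnover was close to level. Of 81 cytosolic ribosomal protein genes 2 rose and 1 fell, and 72 lay above the median of all genes. The member that fell was *Rps16*, from 639 to 268 FPKM (529 and 476 in CTL). The entry *AF357399* is listed at the same locus, with 0 and 514 FPKM in *Stat3* cKO and 367 and 0 in CTL. How reads were divided between them was not tested, so the *Rps16* values are uncertain. *Rpl13a* rose from 1349 to 7361 FPKM while it went from 5475 to 2003 in CTL, and since its locus hosts small nucleolar RNAs and has near-identical copies, these values are uncertain. Of 35 proteasome genes 1 rose, the immune subunit *Psmb10* (5.82 to 13.1 FPKM). Of 41 lysosome and autophagy genes 3 fell and none rose: *Ctss*, of macrophages, from 2.46 to 0.160 FPKM, *Wipi1* from 11.7 to 3.24 and *Laptm4a* from 288 to 142. Of 54 splicing genes 7 fell and none rose, with a median 0.39 below that of all genes (0.04 above in CTL). *Hnrnpd* fell from 17.5 to 5.45 FPKM, *Srrm1* from 8.61 to 3.14 and the neural splicing factor *Srrm4* from 1.56 to 0.558.

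Histone and small RNA entries had the least secure values. Of 62 replication-dependent histone entries 9 rose and 7 fell. These genes are near copies of each other, and their transcripts lack poly(A) tails, so the ratios of single members are uncertain. Of 47 small nucleolar, Cajal body and micro RNA entries with a ratio, 32 rose and 3 fell, with a median log2 ratio of 1.75 (0.55 in CTL). *Snord67* went from 574 to 8699 FPKM and *Snora16a* from 169 to 2573, while *Snora65* fell from 109.8 to 28.1. Transcripts of this size lie near or below the fragment length of a standard library, and their FPKM values also enter the library sums given above.

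Gene families found by symbol root gave a similar order without a written list. Of 134 roots with at least 10 genes, the lowest medians were those of *Col* (-3.98 over 30 genes), *Adamts* (-1.26 over 13), *Fzd* (-0.77 over 10), *Chd* (-0.65 over 10) and *Sema* (-0.50 over 16). *Adamts* encodes secreted proteases, *Fzd* the Wnt receptors, *Chd* chromatin remodellers and *Sema* guidance cues. The highest were *Snora* (2.003 over 24), *Snord* (1.59 over 10), *Pcdh*, the non-clustered protocadherins (0.96 over 11), *Ndufb*, of complex I (0.87 over 10), and *Syt*, the synaptotagmins (0.85 over 12). By chromosome the medians ranged only from -0.043 to 0.11, with 0.070 on the X chromosome. By level, 24.5% of the 2486 genes with the lowest mean FPKM (up to 3.78) and 3.998% of the 2476 with the highest (from 35.6) were at least 2-fold lower, with medians of -0.25 and 0.29. By length of the listed locus, protein-coding genes had a median of 0.24 where the locus was at most 8898 bases and of -0.12 where it was at least 82459.

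The order of genes by their ratio was much the same in CTL. Spearman's correlation between the log2 ratios in *Stat3* cKO and in CTL was 0.836 across 12419 genes, a description across genes of comparisons that share no library. Of the 1258 genes that rose in *Stat3* cKO, 930 (73.9%) also rose in CTL, where they are 51.1% of 1820, and 26 had a CTL ratio below 1. Of the 1452 that fell, 1185 (81.6%) also fell in CTL, where they are 76.6% of 1548, and 19 had a CTL ratio above 1. Among genes with at least 10 FPKM in the highest library, the *Stat3* cKO log2 ratio exceeded that of CTL most in *Hist1h2ba*, *Fam65a*, *Hist1h2ad*, *Dhrs3* and *Hist1h2br*. *Fam65a* had 1.19 and 1.04 FPKM in *Stat3* cKO and 68.3 and 1.05 in CTL, and *Dhrs3*, a retinal reductase gene, had 7.66 and 7.34 beside 23.2 and 1.20, so *Fam65a* stood apart in the E11 CTL library, and *Dhrs3* was both higher at E11 and lower at E14 in CTL than in *Stat3* cKO. It fell short of CTL most in *Xist*, *Foxc2*, *Twist1*, *Hist1h2bp* and *Foxd2*, which include a sex-linked gene and mesenchymal genes.

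**Figure D5:**
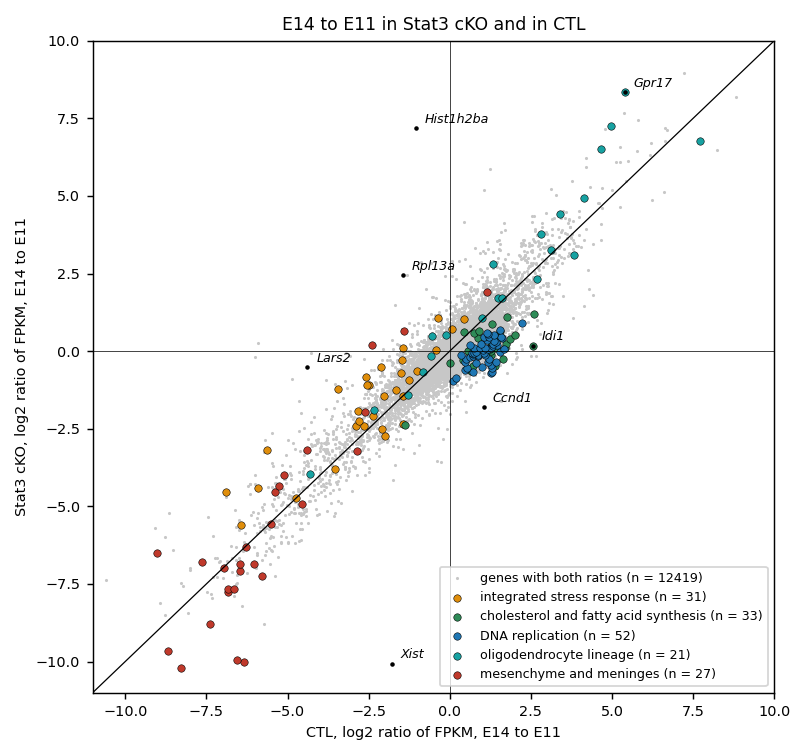
The log2 ratio of E14 to E11 in CTL (horizontal) and in *Stat3* cKO (vertical) for 12419 genes in grey, with 5 lists in colour and equality as a solid line. Mesenchymal genes (medians of -6.78 in *Stat3* cKO and -6.29 in CTL) and oligodendrocyte genes (2.32 and 1.62) lie at opposite ends, DNA replication and cholesterol genes lie below it (medians of -0.05 and 0.17 in *Stat3* cKO against 1.08 and 1.28 in CTL), and stress response genes lie mostly above it in the lower left.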

How the data were processed

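Total RNA of each culture was sequenced on an Illumina instrument, and the authors checked reads with FastQC and estimated expression with the Tuxedo pipeline (TopHat and Cufflinks), so the deposited values are FPKM per gene and locus, with 1 file per library. The submitters' processing notes name Bowtie 0.12.2 and the builds mm8 and mm9 without a role. No counts were used here, so depth is unknown and the precision of low values cannot be given. Annotation of loci was read as listed.

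Entries were matched on gene and locus, kept at a mean of 1 FPKM over 4 libraries, and compared as plain ratios without a pseudocount (Python 3.11.15, numpy 2.4.6, pandas 2.3.3, scipy 1.17.1, matplotlib 3.10.9). The members and the 58 gene lists were chosen with earlier results of these data known. Genes to name were the 10 highest and 10 lowest ratios among genes with at least 10 FPKM in the higher library, the 10 largest rises and falls by difference, of each list the first 4 symbols, the 3 highest and 3 lowest ratios and the 3 highest levels, and the 5 genes at each end of the difference between genotypes. Other named genes were chosen after their values were seen. Protein-coding status came from GENCODE M21 by symbol and promoters from RefSeq. Alternatives changed the pseudocount, scaling, filters, chromosomes and fold threshold. With 1 library a group no test was run.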

Additional observations from a re-analysis of the deposited data

Results flagged for a closer look

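In 5 genes the libraries of the genotypes moved at least 2-fold in opposite directions between E11 and E14. Values are log2 ratios of E14 to E11. With 1 library a group, the difference between genotypes was not tested in any of them. *Ccnd1*, which encodes the G1 cyclin D1, had a ratio of -1.81 in *Stat3* cKO and 1.05 in CTL. *Emp1*, an epithelial membrane protein gene, had 1.48 in *Stat3* cKO (8.17 to 22.7 FPKM) and -1.70 in CTL (14.5 to 4.47 FPKM). The histone gene *Hist1h2bp* had -1.61 and 1.58, and *Hist1h2ba* had 7.19 and -1.04. *Rpl13a*, a ribosomal protein gene, had 2.45 and -1.45. Histone genes and *Rpl13a* have near-identical copies or overlapping small RNAs, and how reads were divided among these was not tested, so their values are uncertain.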

How the results depend on the processing

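The counts of genes at least 2-fold higher (1258) and lower (1452) and the median log2 ratio (0.058) depended on scaling and on the treatment of low values. Centring set the median to 0 and upper-quartile scaling to -0.091. Equal sums over loci of at least 300 bases gave 386 higher, 5730 lower and a median of -0.93, and equal sums over protein-coding genes, added after the data were seen, gave 802 higher, 2152 lower and -0.25. A minimum mean of 5 FPKM gave 832, 705 and 0.12, and no minimum gave 2285, 3356 and -0.046. A threshold of 1.5-fold gave 2684 and 2501, and of 3-fold 585 and 860. The median of the microglia and leukocyte list turned from -3.06 to 0.65 at a minimum mean of 5 FPKM, which leaves fewer genes. A pseudocount of 0.1 (1233 higher, 1398 lower) or 1 (1009 and 1105), leaving out joined and short entries (1249 and 1443) and dropping genes on the sex chromosomes (1208 and 1412) kept both counts within 1.5 times. Of 5440 values of 556 named genes under these alternatives, 0 turned a 2-fold change into one of the other sign. This could not have come out otherwise and shows no stability. Scaling moved each log2 ratio by at most 0.99, less than 2-fold, and a pseudocount or filter cannot reverse a gene's ratio. List medians of any size changed sign in 19 lists under equal sums over loci of at least 300 bases and in 8 under equal sums over protein-coding genes, 4 under upper-quartile scaling, 3 at a minimum mean of 5 FPKM, 2 under centring and 1 with no minimum. No paired analysis was possible because each group holds 1 library and the labels give no replicate numbers.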

Other observations

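Some entries were listed at 0 in 1 of the *Stat3* cKO libraries and were high in the other, and no fold is given for them. *Snord83b*, a small nucleolar RNA, was listed at 0 at E11 and at 248284 FPKM at E14. *Mir5133* had 52888 FPKM at E11 and was listed at 0 at E14, as was *Mir1905* with 19259.5 FPKM at E11. *Morf4l2*, a gene of a chromatin complex, was listed at 0 at E11 in *Stat3* cKO and at 355 FPKM at E14, and had 328 and 454 FPKM in CTL. The ribosomal RNA entry *Rn45s*, which every cell transcribes, had 7780 FPKM at E11 in *Stat3* cKO and was listed at 0 in CTL of the same stage, so a listed 0 does not show that a transcript is absent.

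Metabolic genes outside the lists' main movement gave a few further values. *Lars2*, a mitochondrial leucyl-tRNA synthetase gene, had 2558 FPKM at E11 and 1782 at E14 in *Stat3* cKO, beside 2331 and 111 in CTL. Most of these values were far above those given for the synthetase genes *Cars*, *Iars* and *Cars2*. Whether the reads at this locus come from *Lars2* mRNA was not tested, so its values are uncertain. *Dbi*, which encodes an acyl-CoA binding protein of glia, rose 8.89-fold in *Stat3* cKO from 237 to 2105 FPKM and in CTL from 121 to 1555.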
